A study of Mus musculus with 4 samples.

Results

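The myocytes at the inflow of the embryonic heart and around its atrioventricular canal (AVC) were examined as the cardiomyocytes (CMs) that held transcripts of *Shox2*, the homeobox gene of sinus venosus myocardium, or of *Bmp2*, the ligand gene of AVC myocardium. The data are 10x Genomics single-cell RNA sequencing of hearts dissected at E10.5, in which each captured transcript carries a unique molecular identifier (UMI). A barcode was taken as a member if it held at least 1500 genes and at most 10% mitochondrial UMIs, at least 20 UMIs of *Tnnt2* and 10 of *Ttn* per 10000, under 10 of the ventricular light chain gene *Myl2*, under 2 of the endothelial genes *Pecam1*, *Cdh5* and *Ecscr* together, and at least 2 UMIs of *Shox2* and *Bmp2* together. Of 50436 barcodes 30415 passed on genes and mitochondrial UMIs, 10951 were CMs by the gate, 2688 of these were *Myl2*-low, and 942 were members. No member barcode occurred in more than 1 library.

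The control hearts were *Tie2f/f* and the *Tie2-cko* hearts were *Nfatc1Cre;Tie2f/f*, so that both genotypes carry the floxed *Tie2* (*Tek*) alleles and the Cre, expressed from *Nfatc1* in the endocardium, is in the mutants alone. The CMs described here are not the cells in which *Tie2* is deleted. Each genotype had 2 libraries, numbered 5 and 7 for control and 6 and 8 for *Tie2-cko*, and values of a genotype are given in that order below. The methods state that the hearts of both genotypes were somite-matched and came from the same litter, so that the libraries of a genotype stand for separate hearts of that litter. With 2 against 2 libraries, an exact permutation test of a single value gives no two-sided p below 0.333.

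The sinus venosus collects the venous blood at the back of the heart, and its myocardium gives rise to the sinus node, the primary pacemaker. SHOX2 and TBX3 keep the working-muscle programme low there and allow the pacemaker channel gene *Hcn4* to be expressed. AVC myocardium lies between atria and ventricles, conducts slowly, and signals through BMP2 to the overlying endocardium, which forms the valve cushions. In the AVC, BMP signaling raises TBX2, which together with TBX3 represses chamber genes such as *Nppa*.

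One regulatory sequence in which this repression has been studied is the promoter of *Nppa*, the gene of atrial natriuretic peptide. It is shown because *Nppa* had the largest decrease, among genes of at least 0.5 UMIs per 10000, in the comparison of the members with other CMs described further on. The 250 bases before the start of *Nppa* (RefSeq, GRCm38.p6, chr4:148000472-148000721, plus strand) are printed 5′ to 3′, with a T-box element (TCACACCT or AGGTGTGA) and an NKX2-5 element (TGAAGTG or CACTTCA) in capitals.

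Nppa promoter: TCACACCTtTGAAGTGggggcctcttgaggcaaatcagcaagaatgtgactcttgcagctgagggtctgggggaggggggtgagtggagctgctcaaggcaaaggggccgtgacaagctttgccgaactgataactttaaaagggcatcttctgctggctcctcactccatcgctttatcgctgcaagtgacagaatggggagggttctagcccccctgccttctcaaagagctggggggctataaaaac

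The T-box element began 250 bases and the NKX2-5 element 241 bases before the start. Searched on both strands, the T-box letters occurred in 1.12% of 32851 promoters cut to the same length and the NKX2-5 letters in 3.31%, and both occurred in 13 promoters (0.0396%). Of the 9 genes listed for chamber working myocardium 8 had an entry, and *Nppa* was the 1 gene of these with either element. A match of letters is a description and not a binding site.

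The members fell into 3 kinds. In 263 cells only *Shox2* was detected (Shox2-only), in 463 only *Bmp2* (Bmp2-only), and 216 held both. A single UMI of the second gene placed a cell among those with both. Of red blood cell barcodes in libraries 5, 6, 7 and 8, 4.48%, 4.02%, 4.90% and 4.04% held a *Bmp2* UMI. A *Shox2* UMI was held by 2.24%, 1.21%, 1.31% and 1.01% of them. The part of free RNA in the cells with both genes was not tested. Control library 5 had 102 Shox2-only, 80 Bmp2-only and 70 cells with both, and control library 7 had 56, 148 and 53. *Tie2-cko* library 6 had 27, 56 and 36, and *Tie2-cko* library 8 had 78, 179 and 57. The median member held 17827.5 UMIs in library 5, 37963 in library 6, 16728 in library 7 and 21188.5 in library 8, so library 6 was the deepest per cell and held the fewest members. Bmp2-only cells were deeper than Shox2-only cells in all 4 libraries, with medians of 29764 against 15596.5 UMIs in library 5 and 21928 against 20770.5 in library 8, and for this reason the test of Shox2-only against Bmp2-only cells was repeated at 1 depth. Barcodes were scored as doublets by Scrublet, and those of highest score were marked, in a number set by the barcodes kept. In libraries 5, 6, 7 and 8 this number was 651 of 9019, 160 of 4468, 508 of 7965 and 643 of 8963. Library 6 thus had the smallest marked share by construction. Among the members 7.14%, 0.840%, 8.56% and 8.92% were marked in these libraries. The highest marked shares were 17.5% among cells with both genes in library 8 and 13.8% among Bmp2-only cells in library 5.

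Members made up 8.30% of CMs in control library 5 (95% Wilson interval 7.37 to 9.33) and 8.44% in control library 7 (7.50 to 9.48). They made up 9.91% in *Tie2-cko* library 6 (8.34 to 11.7) and 8.56% in *Tie2-cko* library 8 (7.70 to 9.51). The intervals cover counting error only. The *Tie2-cko* mean of 9.23% ± 0.953 lay 0.866 percentage points above the control mean of 8.37% ± 0.101 (SD, n = 2 libraries each; two-sided exact permutation p = 0.333, the lowest this design allows). For a repeat at 1 depth, barcodes under 10000 UMIs were left out, the others were thinned to 10000 UMIs and the gate was applied anew, which left 181, 78, 182 and 212 members in libraries 5, 6, 7 and 8, in part different cells. The difference was then 0.316 percentage points (exact permutation p = 1). Without thinning it was 0.192 without *Tie2-cko* library 6 and 1.54 without *Tie2-cko* library 8. The Shox2-only share of the members was 40.5% and 21.8% in control hearts and 22.7% and 24.8% in *Tie2-cko* hearts. Control library 5 stood apart, the genotypes overlapped, and the difference of means of −7.37 percentage points (exact permutation p = 1) became 1.98 without that library. At 10000 UMIs the shares were 49.2% and 22.5% in control and 37.2% and 28.3% in *Tie2-cko* hearts, a difference of −3.11 percentage points (exact permutation p = 1), and library 6 lay nearer to library 5. Neither unthinned difference of means exceeded the larger SD of the 2 genotypes.

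**Figure D1:**
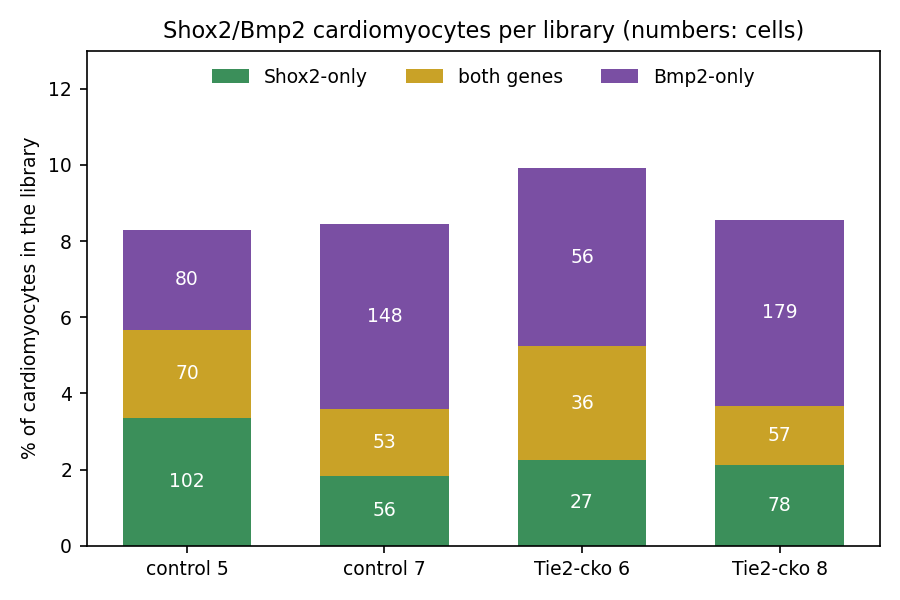
Stacked bars give Shox2-only, double-positive and Bmp2-only cells as a percentage of the CMs of each library, with the number of cells written in each segment. The whole bars lie between 8.30% and 9.91%, and control library 5 has the largest Shox2-only segment (102 cells).

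The name of the cells was set beside the markers proposed for them, as a description, since these markers were proposed with results of these data known. The levels of *Shox2* and *Bmp2* follow from the choice of the cells by these genes and check nothing, and *Vsnl1*, *Rspo3* and *Cacna2d2* were not used in the choice. A level here is the number of UMIs per 10000, averaged over the cells of a library. *Shox2* (chromosome 3, 66971727 to 66981771, minus strand, GRCm38) stood at 6.38, 7.06, 5.58 and 3.82 in the Shox2-only cells of libraries 5, 6, 7 and 8. *Bmp2* (chromosome 2, 133552159 to 133562885, plus strand) stood at 3.25, 2.84, 4.42 and 3.65 in the Bmp2-only cells. In CMs with high *Myl2* the means over the 4 libraries were 0.0303 for *Shox2* and 0.319 for *Bmp2*. These CMs are many, however, and 14.2% of 2310 in library 5 and 13.6% of 942 in library 6 held at least 1 *Bmp2* UMI. The limit on *Myl2* leaves them out, so the members are not all the CMs with *Bmp2*.

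*Vsnl1*, which encodes the calcium sensor visinin-like 1, stood at 4.23, 5.09, 4.96 and 3.64 in the Shox2-only cells of libraries 5, 6, 7 and 8, and at 0.346, 0.400, 0.450 and 0.410 in Bmp2-only cells. The lowest Shox2-only library lay far above the highest Bmp2-only library. *Rspo3*, the gene of a secreted enhancer of Wnt signaling, had the opposite order, with 0.881, 0.543, 1.14 and 0.327 in Shox2-only cells against 3.94, 4.20, 6.07 and 4.16 in Bmp2-only cells. *Cacna2d2*, a calcium channel subunit gene, did not separate the kinds. It stood between 1.71 and 2.39 in Shox2-only cells and between 2.03 and 2.24 in Bmp2-only cells, and between 0.645 and 0.727 in the *Myl2*-low CMs without a *Shox2* or *Bmp2* UMI. *Vsnl1* thus marked the *Shox2* side, *Rspo3* the *Bmp2* side and *Cacna2d2* both.

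The cells just inside and just outside the threshold did not change evenly with the number of UMIs. In library 5 the mean *Vsnl1* level was 0.923 in 403 cells with 0 *Shox2* and *Bmp2* UMIs, 1.41 in 72 cells with 1 UMI and 2.07 in 21 cells with 2 UMIs. It was 1.05 in 18 cells with 3 UMIs, 2.18 in 21 cells with 4 UMIs and 3.64 in 192 cells with 5 or more. In library 8 the *Nppa* level was 38.8 in 584 cells with 0 UMIs, 18.8 in 100 cells with 1 UMI, 6.90 in 62 cells with 2 UMIs and 7.02 in 182 cells with 5 or more. In library 5 *Nppa* stood at 22.2 with 1 UMI, 19.7 with 2, 26.6 with 3 and 5.04 with 5 or more. The same steps in library 7 gave 19.2, 21.5, 5.08 and 5.41. In library 6, which had 15 cells with 1 UMI and 12 with 2, *Vsnl1* stood at 0.867 and 0.576 in these against 0.971 in cells with 0 UMIs, and *Nppa* at 58.0 and 28.8 against 47.5. In library 7 *Vsnl1* stood at 0.911 with 1 UMI and 0.673 with 2 against 0.765 with 0. In each library the highest *Vsnl1* level was that of the cells with 5 or more UMIs. Cells with 1 UMI were left out of every comparison.

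Markers of other cell types were low in the members but not all at 0. The summed level of 9 endothelial genes lay between 0.649 and 0.847 in the 4 libraries, led by *Kdr*, and 6 of the 9 were under 0.05. Endothelial cells are limited by the gate itself. The 6 immune and platelet genes summed to at most 0.0333, with *Ptprc* at 0. The 7 neural genes summed to between 0.169 and 0.283 and the 9 epithelial or hepatic genes to between 0.0926 and 0.602. The 9 cushion mesenchyme genes summed to between 0.952 and 1.50, led by *Twist1*, and the 6 epicardial genes to between 0.355 and 0.617. Outflow tract genes summed to between 3.12 and 3.82, of which *Bmp4* was the largest part, with a mean level of 2.43 over the 4 libraries. The largest foreign signal was haemoglobin, whose list of 7 red blood cell genes summed to 83.7 and 38.8 in control and to 10.7 and 9.86 in *Tie2-cko* members.

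The Shox2-only and Bmp2-only cells were then compared within libraries on the genes that the gate did not use (edgeR quasi-likelihood test on UMIs summed per library and kind, with the library as a term). Sorting cells on *Shox2* and *Bmp2* also sorts whatever goes with them, and the calls describe that company. Of 9815 genes 1115 passed an adjusted p of 0.05 (11.4% called), 449 higher in Shox2-only cells (4.57%) and 666 lower (6.79%). The count was 496 by DESeq2. After thinning to 10000 UMIs it was 520 of the 5414 genes then tested (9.60%). Whatever their p, 12.5% of the genes were higher and 18.6% were lower in Shox2-only cells in all 4 libraries.

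Among sinus venosus and sinus node genes other than *Shox2*, 5 of 9 were higher in Shox2-only cells, 1 was lower and 3 did not pass, with a median log2 fold change of 0.72 against 0.0071 over all genes. *Smoc2*, the gene of a secreted calcium-binding matrix protein, stood at 1.30, 2.27, 0.433 and 0.470 UMIs per 10000 in the Shox2-only cells of libraries 5, 6, 7 and 8 and at no more than 0.0105 in Bmp2-only cells. Its log2 fold change was 7.21 ± 0.26 (SE, n = 4 libraries; edgeR adjusted p = 5.96e-13), higher in 4 of 4 libraries. *Hcn4*, the main pacemaker channel gene of the sinus node, stood at 0.887, 0.997, 0.327 and 0.400 against 0.0572, 0.0612, 0.0695 and 0.0755, a log2 fold change of 2.80 ± 0.21 (adjusted p = 4.02e-08, edgeR). The levels of the 2 kinds did not overlap for either gene, although the Shox2-only levels of *Smoc2* and *Hcn4* were lower in libraries 7 and 8 than in 5 and 6. *Vsnl1* (log2 fold change 2.99), the sinus horn transcription factor gene *Tbx18* (1.71) and *Igfbp5* (0.72), which encodes an insulin-like growth factor binding protein, were also higher. By DESeq2 3 of the 9 were higher, since *Tbx18* and *Igfbp5* no longer passed. *Tbx3*, which is active in the sinus node and in the AVC, was lower by 1.36 in Shox2-only cells, and *Isl1*, *Cacna1d* and *Cacna2d2* did not pass, at 0.57, 0.06 and −0.17.

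Each of the 6 AVC genes tested other than *Bmp2* was lower in Shox2-only cells, with a median log2 fold change of −1.79. *Msx2*, a homeobox target of BMP signaling, was lowest at −3.13 ± 0.30 (edgeR adjusted p = 8.18e-07), with levels in libraries 5, 6, 7 and 8 of 0.00285, 0.0108, 0.0259 and 0.0682 in Shox2-only cells and of 0.280, 0.290, 0.510 and 0.317 in Bmp2-only cells. *Rspo3* differed by −2.62, *Tbx2* by −1.81, the hyaluronan synthase gene *Has2* by −1.76, *Tbx3* by −1.36 and *Tgfb2*, a ligand gene for cushion formation, by −1.08. The *Tbx2* level was 0.0729, 0.115, 0.0345 and 0.106 in Shox2-only cells and 0.476, 0.381, 0.307 and 0.316 in Bmp2-only cells, again without overlap. The AVC gene *Cacna1g* was under the filter on low counts and was not tested, at no more than 0.0131 UMIs per 10000 in any library of Bmp2-only cells.

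**Figure D2:**
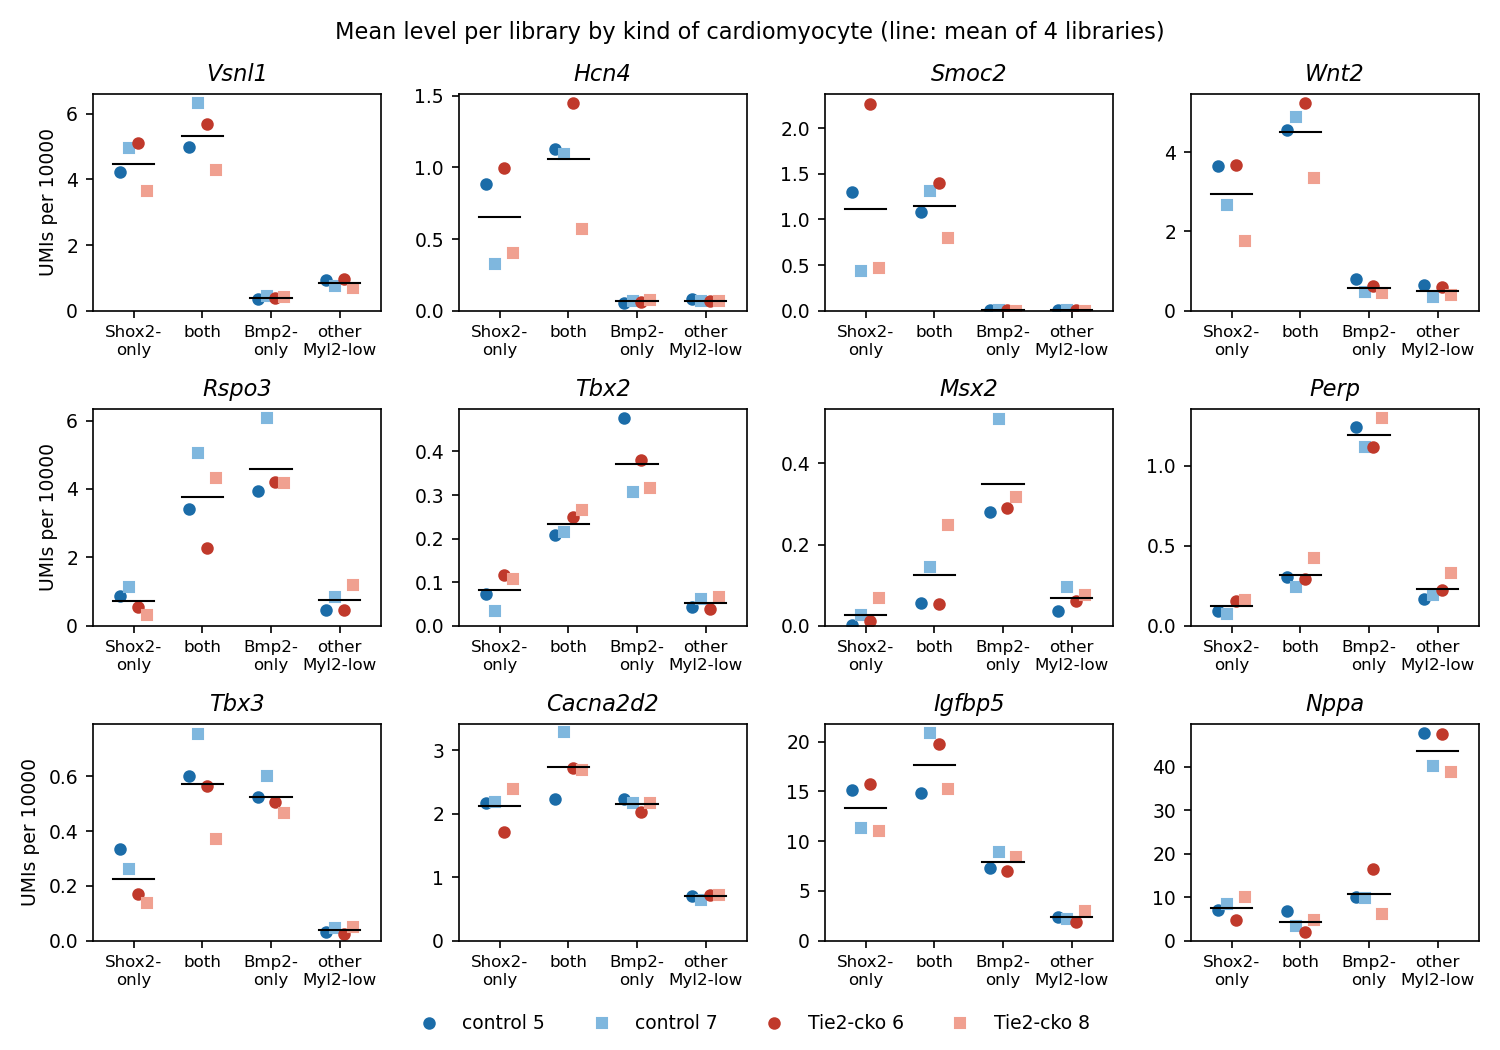
Points give the mean UMIs per 10000 of each library for 12 genes in Shox2-only cells, cells with both genes, Bmp2-only cells and the other Myl2-low CMs, with a line at the mean of the 4 libraries. *Vsnl1*, *Hcn4*, *Smoc2* and *Wnt2* are high in the kinds with *Shox2*, *Perp*, *Msx2* and *Tbx2* are highest in Bmp2-only cells, and *Nppa* is highest in the other CMs, between 38.8 and 47.7.

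The 12 genes of largest fold change toward Shox2-only cells were taken from 223 that qualified by level and direction. After *Smoc2* came *Calca* (log2 fold change 5.45), the gene of calcitonin and its related peptide, *Fst* (4.24), which encodes the activin-binding follistatin, *Plac8* (3.65) and *Sln* (3.02), the atrial inhibitor of the sarcoplasmic calcium pump. *Vsnl1* and *Hcn4* were followed by *Ppp1r17* (2.78), *Lxn* (2.77), *Angpt1* (2.42), *Wnt2* (1.94) and the transcription factor gene *Etv1* (1.66). *Calca* stood at 1.46, 1.59, 2.77 and 2.83 UMIs per 10000 in the Shox2-only cells of libraries 5, 6, 7 and 8 and at no more than 0.0557 in Bmp2-only cells. *Wnt2* stood at 3.65, 3.67, 2.67 and 1.76 against 0.801, 0.616, 0.474 and 0.436. For *Calca* and *Wnt2* the lowest Shox2-only library lay above the highest Bmp2-only library.

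*Angpt1* encodes ANG1, the activating ligand of TIE2, and is made by myocardium. Its level was 1.49, 2.55, 1.79 and 1.39 UMIs per 10000 in the Shox2-only cells of libraries 5, 6, 7 and 8 and 0.174, 0.279, 0.430 and 0.327 in Bmp2-only cells (log2 fold change 2.42 ± 0.17, edgeR adjusted p = 8.89e-09). In cells with both genes it was 0.573, 0.357, 0.501 and 0.404. The Shox2-only cells thus held the most *Angpt1* among the 3 kinds in every library. The gene of the receptor itself, *Tek*, was at or under 0.0136 in the members of every library, while in the endothelial gate it was 0.749 and 1.18 in control but 0.310 and 0.222 in *Tie2-cko* hearts, the order the labels call for.

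The 12 genes of largest fold change toward Bmp2-only cells, among 231 that qualified, were led by *Nrp2* (log2 fold change −3.94), the gene of a receptor for semaphorins and VEGF, and *Perp* (−3.34), which encodes a desmosomal membrane protein. *Perp* stood at 1.24, 1.12, 1.11 and 1.29 UMIs per 10000 in the Bmp2-only cells of libraries 5, 6, 7 and 8 and at 0.0949, 0.155, 0.0711 and 0.163 in Shox2-only cells, without overlap. *Rspo3*, *Itm2a* (−2.54), *G0s2* (−2.49), the cell cycle inhibitor gene *Cdkn1a* (−2.49), *Capn6* (−2.38), the neuropeptide gene *Gal* (−2.19), the transcription factor gene *Hand1* (−2.15), *Fam78a* (−2.14), the plasma membrane calcium pump gene *Atp2b4* (−2.08) and *Col2a1* (−1.91) followed.

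**Figure D3:**
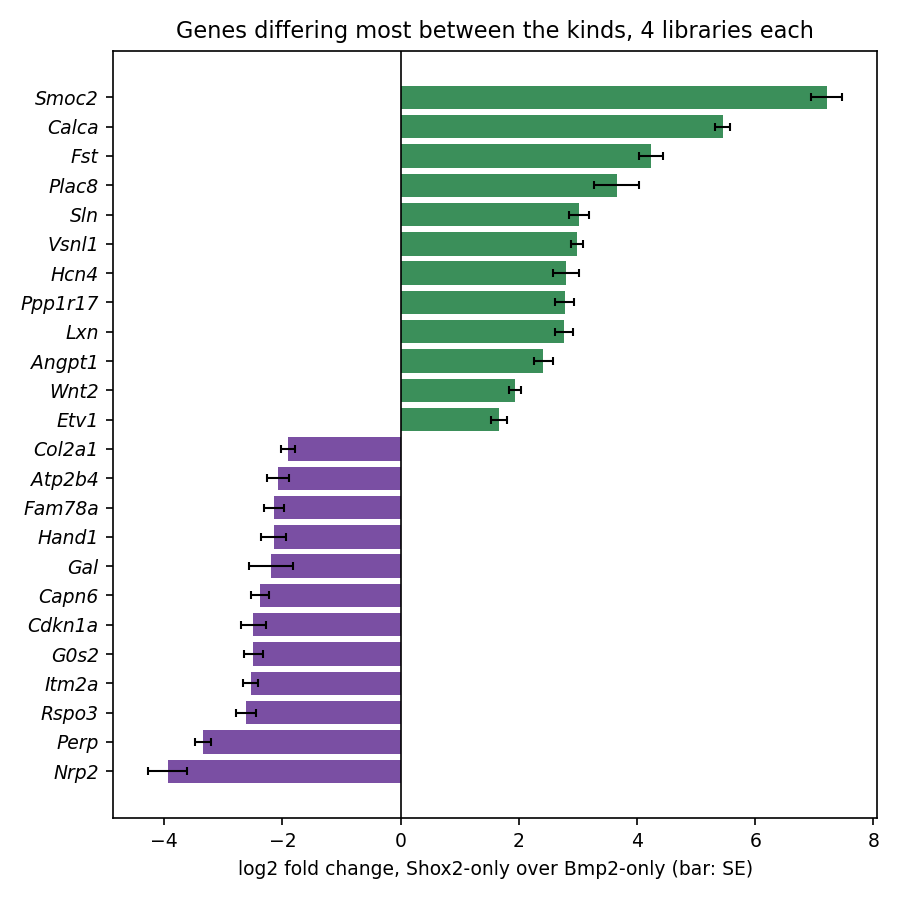
Bars give the log2 fold change of Shox2-only over Bmp2-only cells with its standard error for the 12 genes of largest change in each direction, from 4 libraries. *Smoc2* (7.21) and *Calca* (5.45) stand at one end and *Nrp2* (−3.94) and *Perp* (−3.34) at the other.

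The kinds were also compared on atrial and ventricular genes. Of 8 atrial genes 4 were higher in Shox2-only cells, *Sln*, the nuclear receptor genes *Nr2f2* (1.12) and *Nr2f1* (0.78), and *Stard10* (1.11), and 2 were lower, *Tbx5* (−0.54) and the myosin gene *Myh6* (−0.39). The summed level of the 8 genes had the opposite order, 353, 326, 359 and 378 UMIs per 10000 in Shox2-only cells of libraries 5, 6, 7 and 8 against 409, 406, 367 and 397 in Bmp2-only cells. Most of it was the light chain gene *Myl7*, which did not pass (log2 fold change −0.24, edgeR adjusted p = 0.0578). Of 4 ventricular genes tested 3 were lower in Shox2-only cells, the slow myosin gene *Myh7* (−1.61), *Mpped2* (−1.90) and *Pln* (−1.21), and none was higher. Of 5 outflow tract genes 3 were lower, *Sema3c* (−2.47), *Wnt11* (−1.88) and *Cxcl12* (−1.85), and *Bmp4* was higher (0.85) but did not pass by DESeq2. Of 14 sarcomere genes 6 were lower in Shox2-only cells and none higher, for example *Actn2* (−0.95), *Tcap* (−0.95) and *Mybpc3* (−0.74), and 8 did not pass. Scaling to library totals in place of TMM gave 9 lower, and thinning to 10000 UMIs gave 8 lower and 2 higher. The gate kept *Myl2* under 10 UMIs per 10000 in all cells. The mean *Myl2* level was 2.21 in Shox2-only and 3.89 in Bmp2-only cells.

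Among 20 BMP pathway genes tested 6 were lower in Shox2-only cells, 1 was higher and 13 did not pass. The inhibitory SMAD genes *Smad6* (−1.63) and *Smad7* (−1.02), *Smad9* (−1.48) and the target *Id1* (−0.70) were lower, whereas *Bmp4* was higher. DESeq2 left 3 lower and none higher, *Bmp4* and *Smad9* being among those that no longer passed. Of 15 pacemaker and calcium handling genes 2 were higher, *Hcn4* and *Sln*, and 4 were lower. The 4 that were lower were *Pln*, the potassium channel gene *Kcnj5* (−1.03), the calcium channel gene *Cacna1c* (−0.72) and the gap junction gene *Gjc1* (−0.46). *Cacna1c* and *Gjc1* no longer passed by DESeq2, and after thinning to 10000 UMIs 4 of 11 genes tested were higher and 2 lower, with the median log2 fold change moving from −0.16 to 0.02. Of 19 transcription factor genes 5 were higher and 7 lower, the lower ones including *Tbx20* (−1.58) and *Hand1*, and DESeq2 gave 3 higher and 7 lower. Of 15 cell cycle genes 2 were higher, *Ccnd2* (0.70) and *Cenpf* (0.57), and 2 were lower, among them *Cdkn1a*.

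The cushion mesenchyme list split, with *Pdgfra* higher (2.05) and *Prrx1* lower (−2.01) in Shox2-only cells and 5 of 7 genes not passing. Of 6 red blood cell genes 5 were lower in Shox2-only cells, *Hbb-y* by 0.72 on the log2 scale, and none of the 6 passed by DESeq2 or, of 5 tested, after thinning. With doublets removed the *Hbb-y* difference was 0.01 and did not pass. *Hbb-y* stood at 31.4, 4.62, 13.9 and 3.41 UMIs per 10000 in Shox2-only and at 46.1, 4.51, 22.6 and 4.73 in Bmp2-only cells of libraries 5, 6, 7 and 8, so its range between libraries was wider than that between kinds. The part of free haemoglobin RNA in these differences was not tested.

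The 216 cells with both genes were described by their levels alone, without a test. They did not lie midway between the other kinds for every gene. *Id4*, a BMP target, was highest in them, at 1.07, 1.39, 2.13 and 0.974 UMIs per 10000 in libraries 5, 6, 7 and 8, against at most 0.693 in Shox2-only and 0.406 in Bmp2-only cells. *Bmp4* stood at 4.11, 4.30, 4.32 and 3.70, above both other kinds in each library, as did *Wnt2*, at 4.54, 5.23, 4.89 and 3.35. They held *Hcn4* (1.13, 1.45, 1.09 and 0.569) together with *Rspo3* (3.41, 2.27, 5.06 and 4.33). *Perp*, at 0.243 to 0.425, and *Msx2*, at 0.0542 to 0.248, stayed below their level in Bmp2-only cells in every library. *Hcn4* and *Vsnl1* stood above their Shox2-only level in every library, and *Smoc2* in libraries 7 and 8 alone. The means of *Rspo3* and *Tbx3* over the 4 libraries were 3.76 and 0.572 in cells with both genes and 4.59 and 0.524 in Bmp2-only cells.

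The members of all 3 kinds were next compared, within libraries, with the 1490 *Myl2*-low CMs that passed the same gate and held no *Shox2* or *Bmp2* UMI. These cells were deeper than the members, with median UMIs of 25945, 49180, 22514.5 and 25250.5 in libraries 5, 6, 7 and 8. Of 11774 genes 4746 passed (40.3% called; edgeR quasi-likelihood test, adjusted p under 0.05), 2178 higher in the members (18.5%) and 2568 lower (21.8%). Scaling to library totals moved the median of all genes by 0.156 on the log2 scale and gave 4110 higher and 1262 lower, so that small differences of either sign depend on the scaling. Per 10000 UMIs, with counts summed over the cells of a library, 42.7% of the genes were higher and 13.9% lower in the members of all 4 libraries. The lists below are read against this background.

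The gene of largest decrease by rule was *Nppa* (gene at chromosome 4, 148000722 to 148002079, plus strand, GRCm38), whose promoter is printed above. It stood at 7.99, 9.48, 8.22 and 6.87 UMIs per 10000 in the members of libraries 5, 6, 7 and 8 and at 47.7, 47.5, 40.2 and 38.8 in the other *Myl2*-low CMs, a log2 fold change of −2.34 ± 0.03 (n = 4 libraries, edgeR adjusted p = 8.30e-14). The highest member library lay far below the lowest library of the other CMs. Shox2-only and Bmp2-only cells did not differ in *Nppa* beyond their spread (log2 fold change 0.00 ± 0.24, adjusted p = 0.996 by edgeR). In library 5 an *Nppa* UMI was held by 92.0% of red blood cell barcodes and by 88.9% of members. At 10000 UMIs the shares were 57.4% of red blood cell barcodes, 76.2% of members and 91.0% of the other *Myl2*-low CMs. The part of free RNA in the *Nppa* level of the members was not tested.

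Of 9 chamber working myocardium genes 8 were lower in the members and none higher, with a median log2 fold change of −1.47 against 0.00751 over all genes, and the count was 8 under each scaling. The fast gap junction gene *Gja5* (−1.81), the muscle gene *Smpx* (−1.68), the gap junction gene *Gja1* (−1.48), the Notch target *Hey1* (−1.47), the natriuretic peptide gene *Nppb* (−1.38), *Cited1* (−1.33) and the trabecular ligand gene *Bmp10* (−1.13) were lower, and *Irx3* did not pass (0.13). *Gja5* stood at 0.0539, 0.0567, 0.0754 and 0.0717 in the members and at 0.303, 0.283, 0.192 and 0.227 in the other CMs of libraries 5, 6, 7 and 8. Within the members, *Hey1* (1.28) and *Cited1* (0.98) were higher in Shox2-only than in Bmp2-only cells.

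All 6 AVC genes and all 9 sinus venosus genes tested were higher in the members, with median log2 fold changes of 2.34 and 1.54. Because the members were chosen by a gene of each list, these directions describe the company of *Shox2* and *Bmp2*. *Tbx3* was higher by 3.77 ± 0.14 (edgeR adjusted p = 1.12e-09), at 0.469, 0.448, 0.558 and 0.367 UMIs per 10000 in libraries 5, 6, 7 and 8 against 0.0312, 0.0260, 0.0465 and 0.0510. *Smoc2* (6.35), *Rspo3* (2.61), *Tbx2* (2.59), *Igfbp5* (2.33), *Hcn4* (2.10), *Msx2* (2.09), *Has2* (1.89), *Tgfb2* (1.71), *Cacna2d2* (1.54), *Vsnl1* (1.13), *Isl1* (0.92), *Cacna1d* (0.87) and *Tbx18* (0.83) were also higher. The outflow tract list moved the same way, with 5 of 6 genes higher, none lower and a median of 0.97, and with 2 of 5 tested higher after thinning. *Tbx3*, *Igfbp5* and *Cacna2d2* lay above the other CMs in each of the 3 kinds and each library. *Vsnl1* did not. Its Bmp2-only levels given above lay below the 0.923, 0.971, 0.765 and 0.704 of the other CMs in libraries 5, 6, 7 and 8. The Bmp2-only levels of *Hcn4* lay near the 0.0807, 0.0699, 0.0652 and 0.0650 of the other CMs. Other genes of the lists were also not raised in each kind. At 10000 UMIs, *Msx2* was held by 0% of Shox2-only cells in libraries 5 and 6, and by 2.90% and 3.36% of the other CMs. *Tbx18* was held by 2.60% and 3.70% of Bmp2-only cells there, and by 4.75% and 5.88% of the other CMs. *Smoc2* was almost absent from Bmp2-only cells, by the levels given earlier.

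Of 22 BMP pathway genes tested 14 were higher in the members, 3 were lower and 5 did not pass. The inhibitors of differentiation downstream of BMP receptors were all higher, *Id4* by 2.72, *Id3* by 1.50, *Id2* by 1.30 and *Id1* by 0.90. *Smad9* (2.23), the ligand gene *Bmp4* (1.56), the feedback inhibitor genes *Smad6* (1.44) and *Bambi* (1.00) were higher too. *Bmp10* and the BMP antagonist gene *Nog* (−1.20) were lower. Of 15 Wnt pathway genes 8 were higher and 3 lower, with the target genes *Axin2* (1.33) and *Lef1* (1.31), *Wnt2* (1.89) and *Rspo3* among the higher ones. Of 23 transcription factor genes 14 were higher, including *Gata4* (0.66) and *Tbx20* (0.54), and 4 were lower, including *Hey1* and *Nr2f1*.

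**Figure D4:**
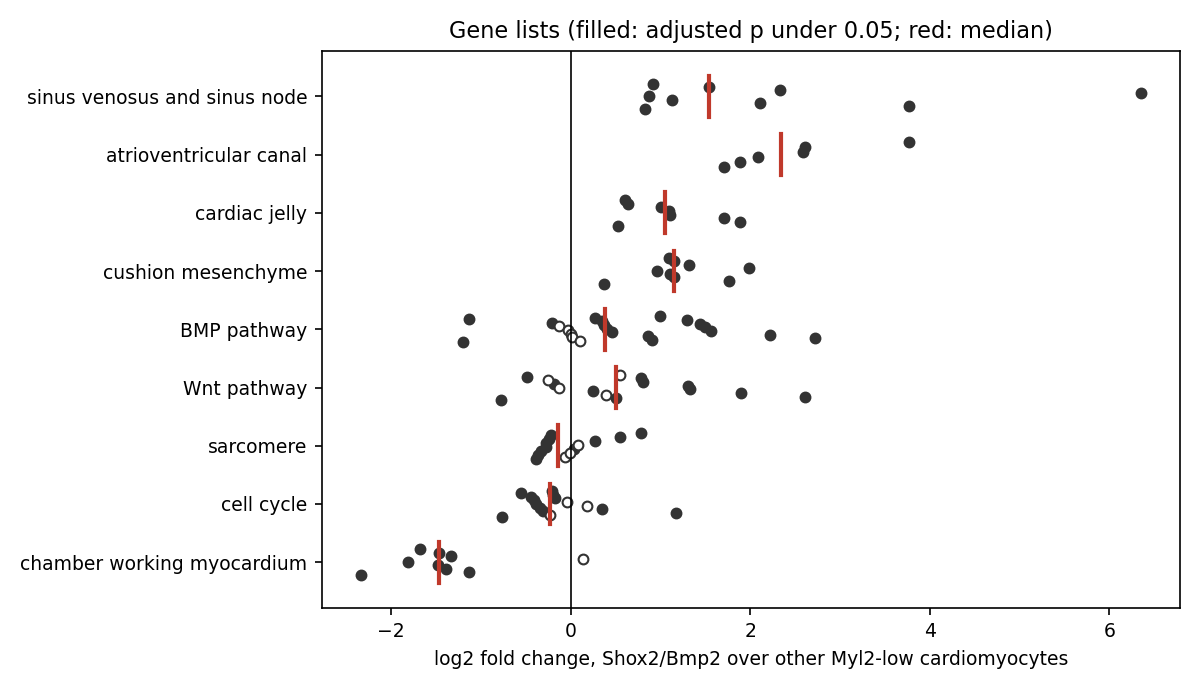
Each point is a gene of a list, placed by its log2 fold change in the members over the other Myl2-low CMs, filled where the adjusted p was under 0.05, with a red line at the median of the list. Sinus venosus, AVC, cardiac jelly and cushion mesenchyme lists lie to the right of 0, and 8 of 9 chamber genes lie to the left.

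The 8 cardiac jelly genes, for the matrix between myocardium and endocardium, were all higher in the members, from *Hapln1* at the low end to *Has2*, with the versican gene *Vcan* at 1.00. This holds against the other *Myl2*-low CMs, whereas in CMs with high *Myl2* the list summed to 5.20, 5.36, 6.85 and 6.09 UMIs per 10000 in libraries 5, 6, 7 and 8, near the 5.74, 6.37, 7.32 and 6.81 of the members. The *Vcan* level was higher in the CMs with high *Myl2* in every library, with a mean of 4.45 against 3.54 in the members. All 9 cushion mesenchyme genes were higher, with *Pdgfra* (1.99) and *Prrx1* (1.76) leading, and 6 of the 9 by DESeq2. Their summed level was 1.50, 1.26, 0.952 and 1.00 UMIs per 10000 in the members and 0.473, 0.496, 0.520 and 0.644 in the other CMs of libraries 5, 6, 7 and 8, small beside the muscle genes. Whether these reads came from the myocytes, from attached mesenchyme or from free RNA was not tested.

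Of 8 atrial genes 5 were lower in the members, with *Stard10* at −1.09 and *Nr2f1* at −0.44, and 3 were higher, with *Sln* at 2.09. Scaling to library totals gave 4 lower. Of 15 cell cycle genes 10 were lower, *Ccnd2* (−0.76) and *Ube2c* (−0.55) at the head, and 2 were higher, with *Cdkn1a* at 1.17, while scaling to library totals left 5 lower and 3 higher and DESeq2 6 lower and 1 higher. Of 14 sarcomere genes 7 were lower, for example *Actc1* (−0.38), and 4 were higher, for example *Tcap* (0.78), and library totals gave 6 of each, so that the sarcomere list has no direction that holds under both scalings. None of 7 red blood cell genes passed.

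By the rule of size, among 473 genes that qualified, the members were further marked by *Sln*, *Pnmt* (2.01), the enzyme gene that makes adrenaline from noradrenaline, *Perp* (1.86), *Lbh* (1.70) and *Ntm* (1.55), next to *Smoc2*, *Id4*, *Rspo3*, *Igfbp5*, *Wnt2*, *Tgfb2* and *Bmp4*. *Pnmt* stood at 0.768, 0.437, 0.413 and 0.409 UMIs per 10000 in the members of libraries 5, 6, 7 and 8 and at 0.136, 0.111, 0.0901 and 0.119 in the other CMs. Among 835 genes on the lower side, *Tnni2* (−2.19), *Pum3* (−1.77), *Gm15543* (−1.70), *Igfbp2* (−1.56), *Mest* (−1.46), *Igfbpl1* (−1.27), *Mylpf* (−1.15) and *Casq1* (−1.13) stood with *Nppa*, *Smpx*, *Nppb* and *Cited1*. *Tnni2*, *Mylpf* and *Casq1* encode proteins of fast skeletal muscle. *Tnni2* was at 1.11, 0.969, 0.695 and 0.466 in the members and 5.10, 4.89, 2.96 and 3.36 in the other CMs, without overlap. *Angpt1* was lower in the members as a whole (−1.07), since Bmp2-only cells and cells with both genes held little of it.

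The last question was whether these CMs differed between *Tie2-cko* and control hearts. Over all members no gene of 11682 passed by the edgeR quasi-likelihood test (0% called), 164 had an unadjusted p under 0.05, and DESeq2 called 8, all lower in *Tie2-cko*. In Shox2-only cells 1 of 8430 genes passed (0.0119% called) and in Bmp2-only cells 0 of 10738 (0% called, 170 with an unadjusted p under 0.05, DESeq2 6). The difference of the genotype effect between the kinds was tested in 10428 genes and passed for none (294 with an unadjusted p under 0.05, DESeq2 0). With libraries 5 and 6 taken as a block beside 7 and 8, a pairing that the labels do not give, 22 genes passed over all members, 10 in Shox2-only and 49 in Bmp2-only cells. With 2 libraries per genotype these counts do not show that expression was alike.

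None of the sinus venosus and AVC genes passed in the genotype comparisons without the block. Among 10 sinus venosus genes the log2 fold change of *Tie2-cko* over control had a median of −0.11 and ran from −0.39 ± 0.14 for *Tbx3* to 0.79 ± 0.35 for *Tbx18* (edgeR adjusted p = 1 for both after rounding). Among 7 AVC genes the median was −0.23, from −0.50 ± 0.23 for *Rspo3* to 0.23 ± 0.14 for *Tgfb2*. *Tbx3* levels were 0.469 and 0.558 UMIs per 10000 in control and 0.448 and 0.367 in *Tie2-cko* members, without overlap but close. Both *Tie2-cko* libraries lay below both control libraries for 9.95% of all genes tested. *Rspo3* levels were 2.56 and 4.78 in control and 2.79 and 3.24 in *Tie2-cko* members, with overlap. The 6 epicardial genes, a list that does not hold *Tbx18*, were all above 0 with a median of 0.95, and none passed. Their summed level was 0.441 and 0.355 UMIs per 10000 in control and 0.617 and 0.540 in *Tie2-cko* members, led by *Krt19*, without overlap. Both *Tie2-cko* libraries lay above both control libraries for 15.2% of all genes tested. The part of the epicardial list in the *Tbx18* value was not tested. *Vsnl1* differed by −0.22 ± 0.20 and *Nppa* by −0.09 ± 0.14. Of the 8 cardiac jelly genes 4 were above and 4 below 0, with a median of 0.00396, and none passed.

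The genes of smallest p were haemoglobin genes, and these were lower in *Tie2-cko*. *Hbb-y*, an embryonic beta-like globin gene, had levels of 37.7 and 18.2 UMIs per 10000 in control and 4.55 and 4.47 in *Tie2-cko* members, a log2 fold change of −3.02 ± 0.36 that missed the threshold (edgeR adjusted p = 0.191). The genotypes did not overlap, as was the case for 9.95% of all genes tested in this direction. *Hba-x* (−3.09), *Hbb-bh1* (−2.73), *Hba-a2* (−2.58) and *Hba-a1* (−3.18) did not pass either, with adjusted p between 0.191 and 0.783. *Hbb-y* was lower in all 13 alternatives, with log2 fold changes from −3.51 to −2.28, and passed in some of them. Fits without 1 library hold a single library of 1 genotype and take their spread from the other genotype. In Shox2-only cells *Hbb-bt* was the gene that passed, with 0.658 and 0.494 UMIs per 10000 in control and 0.0762 and 0.0336 in *Tie2-cko* cells (log2 fold change −3.55 ± 0.35, adjusted p = 0.022 by edgeR), and it did not pass without control library 5 or without control library 7. The other 4 of smallest p in those cells were *Hbb-y* (−2.59), *Hba-x* (−2.51), *Hba-a2* (−2.08) and *Hbb-bh1* (−2.25). In Bmp2-only cells they were *Hba-x* (−3.18), *Hbb-y* (−3.14), *Hbb-bh1* (−2.88), *Hba-a2* (−2.95) and *Hba-a1* (−3.34), with adjusted p of 0.0753 for the first 3 and of 0.143 and 0.395 for the others (edgeR). Each of these 5 was lower in all 9 alternatives and passed in some of them. For all 5 the genotypes did not overlap in Bmp2-only cells, which held for 11% of the genes tested there in the same direction and, for Shox2-only cells, for 12%. *Hba-a1* and *Hba-a2* are near-identical copies, so reads may have been shared between them, and *Hbb-bt* has such a copy in *Hbb-bs*.

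In the other *Myl2*-low CMs *Hbb-y* stood at 33.5 and 10.7 UMIs per 10000 in control and at 9.85 and 7.16 in *Tie2-cko* hearts. The 7 red blood cell genes together summed to 76.5 and 23.3 in control and to 23.9 and 16.1 in *Tie2-cko* hearts there. The genotypes thus overlapped in the sum but not in *Hbb-y*. In CMs with high *Myl2* neither the sums nor *Hbb-y* overlapped, with *Hbb-y* at 33.5 and 11.9 in control and at 8.77 and 3.95 in *Tie2-cko* hearts, so that the same order was seen outside the members. Red blood cell barcodes, with at least 500 UMIs of *Hbb-y* and *Hba-x* per 10000, made up 14.4% and 7.68% of the kept barcodes in control hearts and 11.1% and 2.21% in *Tie2-cko* hearts. Library 5 was highest and library 8 lowest in both measures. Library 6, however, had a larger share of red blood cell barcodes than library 7 and a lower *Hbb-y* level in its members. The part of blood and of free RNA in the lower haemoglobin of the members was not tested, and genotype and library cannot be told apart for it.

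**Figure D5:**
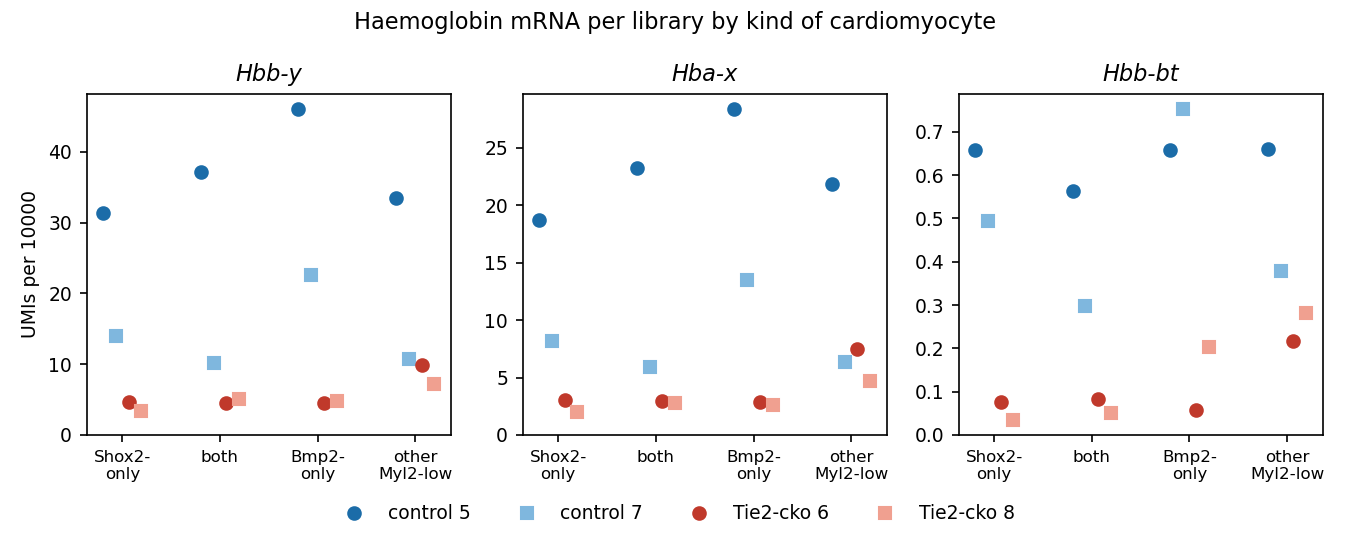
Points give the mean UMIs per 10000 of *Hbb-y*, *Hba-x* and *Hbb-bt* in each library for Shox2-only cells, cells with both genes, Bmp2-only cells and the other Myl2-low CMs. Control libraries lie above *Tie2-cko* libraries in each of the 3 kinds, for *Hbb-y* at 46.1 and 22.6 against 4.51 and 4.73 in Bmp2-only cells.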

How the data were processed

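The files hold UMI counts for 32285 genes per barcode, which were obtained by the authors from Cell Ranger (6.1.2 by the file headers, mm10 in the submitters' processing notes) and deposited as whole numbers without normalization. Whether they were corrected for free RNA is not given in the sources used here. The paper's methods name an earlier version of Cell Ranger than the file headers. Libraries were grouped by their labels, and the sources used here do not say which control library was matched with which *Tie2-cko* library. Everything else was computed from these counts. Libraries 5, 6, 7 and 8 held 259775540, 222270938, 169361996 and 210062861 UMIs, and 9019, 4468, 7965 and 8963 barcodes passed the filters on genes and mitochondrial UMIs. The genes of the gate (8) were left out of calls between kinds of cell.

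Levels are UMIs per 10000, averaged over the cells of a library. The shares of all genes that moved the same way in every library or did not overlap between genotypes come from summed counts instead. Counts of all cells of a kind were summed in each library and tested with edgeR 4.0.16 (TMM, filterByExpr, quasi-likelihood test; SE from the log2 fold change and F; Benjamini-Hochberg over all genes tested; threshold 0.05), after a test on simulated data. Shares were compared by exact permutation over the 4 libraries. Alternatives were DESeq2 1.42.0, other scaling, no count filter, each library left out, a library block, thinning to 10000 UMIs, at least 3 UMIs of *Shox2* and *Bmp2*, Scrublet doublets removed (scanpy 1.11.5, 0.8% per 1000 barcodes) and at most 5% mitochondrial UMIs.

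Genes named are those of 21 lists (198 genes), the 5 of smallest p in each genotype comparison, and the 12 of largest fold change in each direction between kinds of cell that passed, moved the same way in 4 of 4 libraries and reached 0.5 UMIs per 10000. The members, lists and rules were chosen with earlier results of these data known. A few further genes of the lists are not reported here, and the counts and medians of lists leave them out. Positions are from GENCODE M21 (32158 of 32285 genes matched). Scripts ran in Python 3.11.15 (pandas 2.3.3, scipy 1.17.1, numpy 2.4.6) and R 4.3.3.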

Additional observations from a re-analysis of the deposited data

How the results depend on the processing

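Counts of genes called are given as main value, then alternatives. For genotype over all members, 0 became 8 by DESeq2, 33 without the low-count filter, 5 to 30 with 1 library left out, 22 with a library block, 6 after thinning and 1 with a minimum of 3 UMIs. In Shox2-only cells 1 became 4 by DESeq2, 13 without the filter, 0 to 8 with 1 library left out and 10 with the block. In Bmp2-only cells 0 became 6 by DESeq2, 37 without the filter, 3 with library totals, 5 to 45 with 1 library left out and 49 with the block. The interaction went from 0 to 14 without the filter. Between Shox2-only and Bmp2-only cells, 1115 became 496 by DESeq2, 520 after thinning, 684 with at most 5% mitochondrial UMIs and 690 to 963 with 1 library left out, the lowest without *Tie2-cko* library 8. Between members and other *Myl2*-low CMs, 4746 became 2744 by DESeq2 and 2123 after thinning. The cause of these changes was not tested, other than that thinning and leaving out cells or libraries reduce the counts available. With 1 library left out, a genotype comparison holds a single library of 1 genotype, and its spread comes from the other genotype alone. The genotype difference of the Shox2-only share ran from −16.7 to 1.98 percentage points with 1 library left out and reversed without control library 5. The labels share no replicate number between genotypes, so the block of libraries 5 and 6 against 7 and 8 was an assumed pairing.

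Of 65 genes named between the kinds, 61 passed, and 9 of these no longer did in at least 1 alternative. Signs turned for *Nppa* between the kinds by DESeq2 (−0.0026), library totals (−0.036), no filter (−0.025), at most 5% mitochondrial UMIs (−0.11) and with 1 library left out (−0.35 to 0.45), for *Cacna2d2* after thinning (0.073), for *Hbb-y* without doublets (0.0054) and for *Cacna1d* with 1 library left out (−0.035 to 0.21). The genotype effect turned for *Nppa* after thinning (0.039), with 3 UMIs (0.072) and with 1 library left out (−0.19 to 0.028), and for *Vsnl1* with 1 library left out (−0.50 to 0.036). None of the 61 genes named between members and other CMs reversed. Precision was limited by 2 libraries per genotype, and the members of library 6 numbered 119.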

Other observations

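In Shox2-only cells, libraries 5 and 6 stood apart from libraries 7 and 8 for several genes, across genotype. *Plac8* stood at 1.55 and 2.58 UMIs per 10000 in libraries 5 and 6 and at 0.493 and 0.325 in libraries 7 and 8. *Tbx18* stood at 0.334 and 0.574 against 0.112 and 0.126, and *Smoc2* at 1.30 and 2.27 against 0.433 and 0.470. *Calca* had the opposite order, 1.46 and 1.59 against 2.77 and 2.83. In Bmp2-only cells *Itm2a* stood at 2.97 and 5.35 against 6.20 and 7.08. No test was made of this grouping, which was seen in the values.

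The 9 epithelial or hepatic genes summed to 1.29 UMIs per 10000 in the Bmp2-only cells of control library 5, led by *Afp*, the gene of alpha-fetoprotein, and to between 0.0999 and 0.193 in those of the other libraries.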
